A study of Homo sapiens with 12 samples.

Results

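FOXA1, HOXB13, GATA2, GRHL2, SPDEF, ELF3 and EHF are transcription factors of luminal prostate epithelium. They were taken by exact gene symbol and not by a cutoff on measured values, but were chosen with earlier results of these data known. They make up 7 of the 60835 symbols in the deposited tables. All 7 had counts in all 12 libraries and passed the filter on low counts in each comparison. The libraries are described as LNCaP, an established androgen-sensitive human prostate cancer line, and poly(A) RNA was sequenced. There were 4 groups of 3 biological replicates: a negative control shRNA and an shRNA against FOXA1, and a separate negative control shRNA and an shRNA against TRIM28. TRIM28 is a corepressor recruited to chromatin by KRAB zinc finger proteins. The sources used here give neither the hairpins, nor their number, nor the time of collection. The labels spell the line LACAP and give some replicates neighbouring gene numbers, so controls were grouped by title and knockdowns by the treatment label. Knockdown titles read SH control, while SI, of unknown meaning, stands in their column names.

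A luminal cell of the prostate secretes the fluid of the gland and depends on androgen signalling and on factors that bind its enhancers together. FOXA1 is a pioneer factor of the forkhead family that opens chromatin at those enhancers, GATA2 acts with it, and HOXB13 is a posterior homeodomain factor that binds at the same sites. GRHL2, a grainyhead factor, and the epithelial ETS factors SPDEF, ELF3 and EHF support epithelial adhesion and secretory differentiation.

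The sequence next to the transcription start was read for the members that have one in the RefSeq promoter table (GRCh38.p14), to see whether letters bound by these same families lie there. FOXA1, SPDEF, ELF3, GATA2 and EHF had an entry, GATA2 and EHF with 2 starts each. HOXB13 and GRHL2 had none. The 250 bases before each start were searched on both strands, and 35116 promoter windows of the same length were searched alike. The forkhead words were TGTTTAC (in 2.98% of all windows), TGTTTGC (in 3.23%) and TATTTAC (in 2.39%), and 8.27% of windows held any of them. The GATA word was AGATAA (in 9.17%). The ETS words were CGGAAG (in 16.48%) and AGGAAG (in 28.71%), 40.75% holding either. The grainyhead word was AACNNGTT (in 3.00%), and the HOXB13 words were CCAATAAA (in 0.86%) and CTCGTAAA (in 0.12%). No word lies within another, though matches of different words may overlap. The words were chosen after results of these data were known. The 3 windows with a match are shown 5′ to 3′ on the strand of the gene, without annotated exon bases, with matches in capitals:
FOXA1, chr14:37595349-37595499 (minus strand): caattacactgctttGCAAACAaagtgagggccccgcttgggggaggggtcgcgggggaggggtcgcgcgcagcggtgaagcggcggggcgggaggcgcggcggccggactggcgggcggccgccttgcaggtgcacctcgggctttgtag
SPDEF, chr6:34556334-34556579 (minus strand): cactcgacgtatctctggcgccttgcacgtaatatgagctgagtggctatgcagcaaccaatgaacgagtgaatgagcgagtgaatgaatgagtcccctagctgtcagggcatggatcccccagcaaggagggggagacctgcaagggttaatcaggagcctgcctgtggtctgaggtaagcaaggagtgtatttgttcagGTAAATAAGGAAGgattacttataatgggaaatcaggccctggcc
EHF, second start, chr11:34632316-34632463 (plus strand): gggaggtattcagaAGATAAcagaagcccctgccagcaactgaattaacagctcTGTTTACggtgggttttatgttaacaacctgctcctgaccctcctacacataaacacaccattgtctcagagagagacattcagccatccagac
In FOXA1 the capitals are GCAAACA, the reverse complement of TGTTTGC, beginning 235 bases before the start. In SPDEF they are GTAAATA, the reverse complement of TATTTAC, 49 bases before the start, followed without a gap by AGGAAG at 42 bases. In EHF they are AGATAA at 236 bases and TGTTTAC at 196 bases. The first EHF start, both GATA2 starts and the ELF3 start held none of these words. By the annotation, the SPDEF stretch ends next to the first base of the gene, while the FOXA1 and EHF stretches lie inside the gene span outside every exon, in introns of longer transcripts. No binding was measured in these libraries, and a match describes letters only.

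Library totals were 12256092 to 15152890 counts. Levels below are CPM, counts scaled to library size with TMM factors, mean ± SD with n = 3, and a change is a log2 fold change ± standard error (SE) from edgeR's quasi-likelihood test, called at an adjusted p under 0.05. TRIM28 was at 393, 401 and 395 CPM in its controls and at 126, 112 and 55.4 CPM in replicates 1, 2 and 3 of its knockdown. Replicate 3 of that knockdown was unlike its group. Its chi-square per degree of freedom over genes was 22.6 and 20.4 against the other 2 libraries, where all other pairs within groups lay between 2.94 and 5.73. Summed over 6 stromal markers (COL1A1, COL1A2, COL3A1, DCN, LUM and PDGFRB) it had 436 CPM against 29.7 to 40.1 CPM in the other 11 libraries, with COL3A1 at 185 CPM against 1.68 to 6.77 CPM. The part of these differences in the results was not tested, and the changes of the 7 factors in the TRIM28 knockdown are therefore given with and without that library. The 7 prostate luminal markers summed to 2314 to 2399 CPM in the control libraries, 1769 to 1789 CPM in the FOXA1 knockdown and 1614 to 1774 CPM in the TRIM28 knockdown. The 4 basal markers summed to at most 2.76 CPM in controls, 11.5 to 14.7 CPM in the FOXA1 knockdown and at most 4.61 CPM in the TRIM28 knockdown. Among them, TP63 was at 0.27 CPM or less in every library. KRT14 and KRT15, the 2 tested in the FOXA1 knockdown, rose there by 3.05 and 2.78, and both were called. In the TRIM28 knockdown KRT15 was not called at 0.37. KRT14 was too low to be tested there or between the control groups. It thus entered the test in the FOXA1 arm through the knockdown alone. The 5 leukocyte markers summed to at most 2.14 CPM in any library, and the 3 endothelial markers to at most 8.41 CPM outside the TRIM28 knockdown and 10.5 to 10.6 CPM within it. ETV1, an ETS gene known to be rearranged and overexpressed in LNCaP, had between 0 and 3 counts in 11 libraries and 46 counts in replicate 3 of the TRIM28 knockdown. It was singled out after its values had been seen, and the identity of the line was not tested. In bulk RNA, fewer cells of a type and less RNA per cell cannot be told apart.

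Per transcript length, FOXA1, EHF and SPDEF were the most abundant of the 7 factors in control cells and ELF3 by far the least. In the FOXA1 controls the deposited FPKM values were 161 ± 9.89 for FOXA1, 142 ± 6.25 for EHF, 125 ± 16.8 for SPDEF, 88.9 ± 7.16 for HOXB13, 76.0 ± 6.20 for GATA2, 58.4 ± 4.25 for GRHL2 and 8.51 ± 0.444 for ELF3. FOXA1 ranked 287 among all symbols and ELF3 ranked 6094. EHF and SPDEF overlapped between libraries in that group, so their order there is not larger than their spread, whereas the other neighbours in the order did not overlap. The TRIM28 controls gave the same order, again with overlap of EHF and SPDEF alone among neighbours, from 163 ± 5.99 FPKM for FOXA1 through 142 ± 4.86 for EHF, 135 ± 1.43 for SPDEF, 87.8 ± 2.41 for HOXB13, 79.6 ± 2.01 for GATA2 and 57.0 ± 1.19 for GRHL2 to 8.72 ± 0.629 for ELF3.

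Both knockdowns altered this order. In the FOXA1 knockdown EHF stood first at 174 ± 3.59 FPKM, HOXB13 (101 ± 3.93) and GATA2 (100.5 ± 3.83) overlapped, GRHL2 followed at 95.1 ± 0.317, and SPDEF (55.4 ± 1.27) stood above FOXA1 (47.3 ± 0.385). In the TRIM28 knockdown EHF was at 134 ± 23.1 FPKM, FOXA1 at 91.3 ± 23.5, HOXB13 at 70.1 ± 2.65, GATA2 at 67.1 ± 10.2, SPDEF at 59.7 ± 6.67, GRHL2 at 56.9 ± 5.47 and ELF3 at 8.77 ± 1.22. There HOXB13 overlapped with GATA2, GATA2 with SPDEF, and SPDEF with GRHL2, so the order of these neighbours is within their spread. EHF and FOXA1 were separated narrowly, the lowest EHF library being at 118.44 FPKM and the highest FOXA1 library at 117.98 FPKM.

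Between the 2 control groups the 7 factors were alike within the spread of libraries. Their log2 differences, TRIM28 control against FOXA1 control, ran from -0.05 for GRHL2 to 0.10 for SPDEF, and libraries of the groups overlapped for all 7. None was called by edgeR's quasi-likelihood test, with a smallest adjusted p of 0.992 among them and 0 of 7 at an unadjusted p under 0.05. Over all genes 0% of 14839 were called, DESeq2 called 0 as well, and 635 genes had an unadjusted p under 0.05 in edgeR's test, where 742 are expected by chance.

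**Figure D1:**
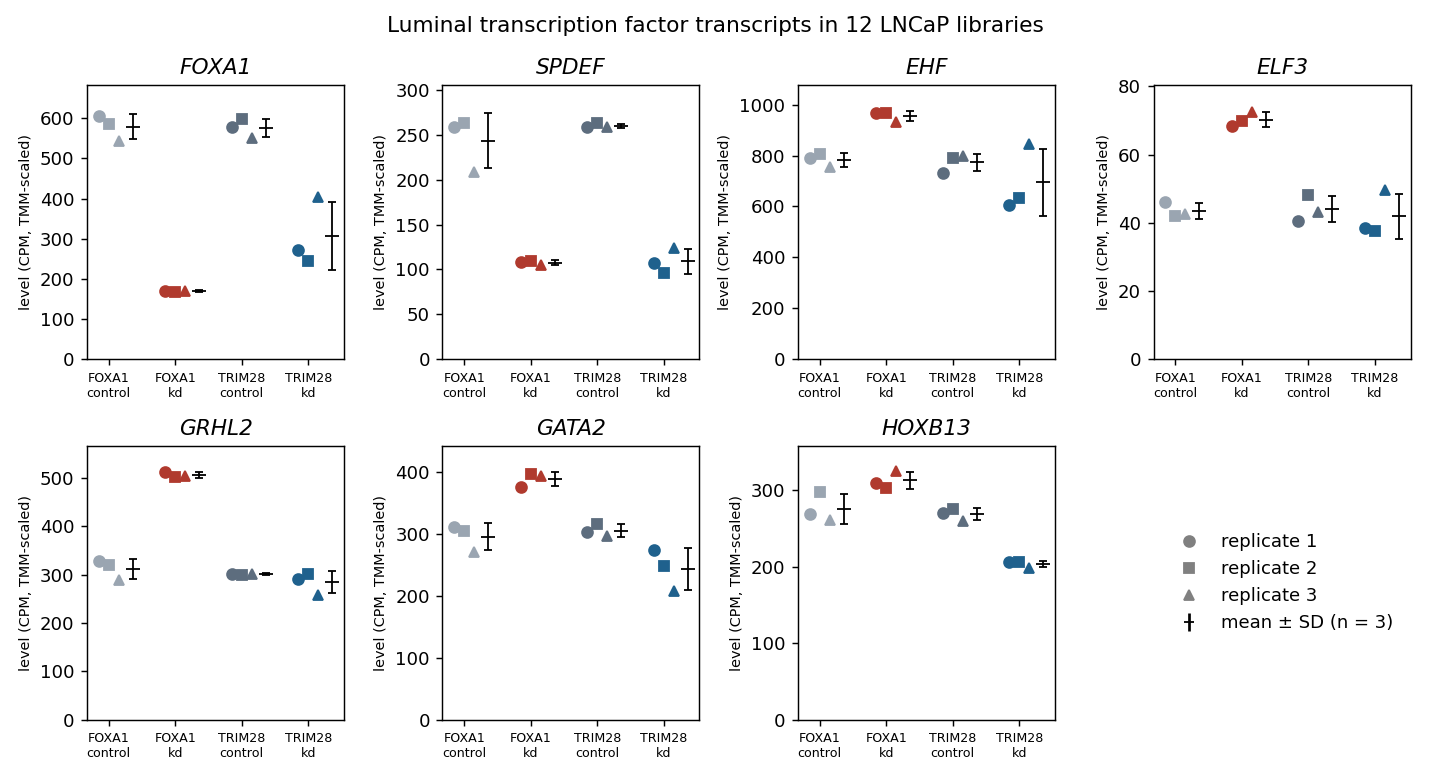
Level of each factor (CPM with TMM scaling, linear axis from 0) in the 12 libraries by group, with replicate number as symbol and mean ± SD beside each group (kd, knockdown). FOXA1 and SPDEF were low in both knockdowns, the other 5 factors were above their controls in the FOXA1 knockdown, and replicate 3 of the TRIM28 knockdown was the highest of its group for FOXA1, SPDEF, EHF and ELF3 and the lowest for GRHL2, GATA2 and HOXB13.

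Knockdown of FOXA1 split the group: SPDEF fell with FOXA1, while GRHL2, ELF3, GATA2, EHF and HOXB13 rose. All 7 were called in the FOXA1 knockdown, against 52.4% of all genes tested, so a call as such was common there. The 5 rises compare with 26.1% of all genes called upward and the 2 falls with 26.3% called downward. FOXA1, the target of the hairpin, is among the 7 calls and the 2 falls, and its fall was set by the design. The knockdown left TRIM28 at 86.8% to 89.7% of its mean control level (log2 fold change -0.19 ± 0.05, adjusted p = 0.00221). In the TRIM28 knockdown 4 of the 7 were called, all downward, against 26.6% of all genes in either direction and 13.3% downward: SPDEF, FOXA1, HOXB13 and GATA2.

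FOXA1 (chr14:37589552-37596059, minus strand, ENSG00000129514) was the target of the first hairpin. Its controls were at 606, 587 and 544 CPM and its knockdown libraries at 171, 166 and 169 CPM. The knockdown libraries were thus close to each other, at 28.7% to 29.5% of the mean control level, and far below every control. The log2 fold change was -1.78 ± 0.05 (adjusted p = 3.14e-22).

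The FOXA1 transcript also fell when TRIM28 was targeted. The TRIM28 controls held 578, 598 and 551 CPM of it and the knockdown libraries 271, 245 and 404 CPM. All 3 knockdown libraries lay below all controls, but replicate 3, which had the least TRIM28, kept 70.1% of the control mean where replicates 1 and 2 kept 47.1% and 42.6%. The log2 fold change was -0.90 ± 0.17 (95% interval -1.28 to -0.53, edgeR's adjusted p = 0.0055) and -1.15 without replicate 3 (adjusted p = 1.76e-16). FOXA1 shares 16 exon bases with TTC6 on the opposite strand in GENCODE 29, and the strand setting of the counting is not given. The deposited span of FOXA1 begins at 37589552 and that of GENCODE 29 at 37589984, so the exons counted may differ. TTC6 itself differed from control by -0.32 in the FOXA1 knockdown.

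SPDEF (chr6:34537802-34556333, minus strand, ENSG00000124664), an ETS factor of secretory epithelia, fell in both knockdowns. In the FOXA1 arm the controls were at 259, 264 and 208 CPM and the knockdown libraries at 109, 109 and 105 CPM. In the TRIM28 arm the controls were at 259, 263 and 259 CPM and the knockdown libraries at 107, 96.0 and 124 CPM. No knockdown library reached any control, and the remaining level was 42.9% to 44.9% after FOXA1 knockdown and 36.9% to 47.5% after TRIM28 knockdown. The log2 fold changes were -1.19 ± 0.08 (adjusted p = 1.62e-07) and -1.25 ± 0.10 (adjusted p = 0.000112). Without replicate 3 the second value was -1.35 (adjusted p = 2.53e-18).

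The fall of SPDEF did not differ detectably between the arms. The difference of its 2 effects, FOXA1 arm minus TRIM28 arm, was 0.07 with a 95% interval of -0.20 to 0.35 (edgeR's adjusted p = 0.778). FOXA1 itself was at 169 ± 2.32 CPM in the FOXA1 knockdown and 307 ± 84.9 CPM in the TRIM28 knockdown, and a link of SPDEF to the FOXA1 level was not tested. The interval for SPDEF allows a difference in either direction.

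EHF (chr11:34621093-34663288, plus strand, ENSG00000135373), an epithelial ETS factor, rose when FOXA1 was knocked down. Its FOXA1 controls were at 790, 807 and 754 CPM and the knockdown libraries at 967, 969 and 931 CPM. The groups did not overlap, and the log2 fold change was 0.28 ± 0.04 (adjusted p = 2.78e-06), a level of 119% to 124% of control. Tested against a fold of 1.2 in place of 0 with edgeR's glmTreat, it was not called (adjusted p = 0.327).

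After TRIM28 knockdown the EHF libraries disagreed. Its TRIM28 controls were at 732, 789 and 796 CPM and the knockdown libraries at 604, 634 and 847 CPM. Replicates 1 and 2 lay below every control and replicate 3 above every control. Over all 6 libraries the log2 fold change was -0.15 ± 0.12 (95% interval -0.42 to 0.12, adjusted p = 0.397), and without replicate 3 it was -0.32 (adjusted p = 0.000145).

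ELF3 (chr1:202007945-202017183, plus strand, ENSG00000163435), an ETS factor induced in differentiating epithelium, was the member with the fewest counts. It was at 46.1, 41.9 and 42.5 CPM in the FOXA1 controls and at 68.3, 69.9 and 72.6 CPM in the knockdown. Every knockdown library was above every control, at 157% to 167% of their mean, with a log2 fold change of 0.69 ± 0.07 (adjusted p = 1.06e-09). In the TRIM28 arm it was at 40.5, 48.1 and 43.2 CPM in controls and at 38.5, 37.7 and 49.6 CPM in the knockdown. Replicates 1 and 2 lay below every control and replicate 3 above every control. Over all 6 libraries the log2 fold change of -0.06 ± 0.13 (95% interval -0.35 to 0.22) was not called (adjusted p = 0.742), and without replicate 3 it was -0.20 (adjusted p = 0.0804), still not called. The antisense gene ELF3-AS1 shares 664 exon bases with ELF3 and AL691482.3 on the same strand shares 664, so their reads may not be told apart. ELF3-AS1 went from 9.82 ± 1.47 to 22.4 ± 1.55 CPM in the FOXA1 knockdown, a log2 fold change of 1.18.

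GRHL2 (chr8:101492439-101669726, plus strand, ENSG00000083307), a grainyhead factor that maintains E-cadherin and claudin genes, rose as much as ELF3 in the FOXA1 knockdown. The controls were at 328, 319 and 289 CPM and the knockdown libraries at 512, 501 and 503 CPM. Knockdown libraries were at 161% to 164% of the control mean without overlap, and the log2 fold change was 0.69 ± 0.05 (adjusted p = 7.93e-13). After TRIM28 knockdown GRHL2 was at 292, 302 and 259 CPM against 302, 299 and 302 CPM in the controls. Replicates 1 and 3 lay below every control and replicate 2 slightly above them, and the log2 fold change of -0.08 ± 0.08 was not called (95% interval -0.26 to 0.11, adjusted p = 0.535). Without replicate 3 it was -0.02 (adjusted p = 0.861). GRHL2 shares 50 exon bases with AP001207.3 on the opposite strand.

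GATA2 (chr3:128479427-128493201, minus strand, ENSG00000179348), a zinc finger factor that binds with FOXA1 at prostate enhancers, moved in opposite directions. It was at 310, 305 and 270 CPM in the FOXA1 controls and at 374, 396 and 392 CPM in the FOXA1 knockdown. All 3 knockdown libraries exceeded all controls, with a log2 fold change of 0.39 ± 0.05 (adjusted p = 3.03e-07). In the TRIM28 arm it was at 302, 316 and 296 CPM in controls and at 273, 248 and 208 CPM in the knockdown. All 3 knockdown libraries were below all controls, and the log2 fold change was -0.32 ± 0.10 (adjusted p = 0.0439). That call held in 7 of 15 alternatives. It was lost without TRIM28 control replicate 1 (adjusted p = 0.104), 2 (0.151) or 3 (0.103), without knockdown replicate 2 (0.0917), with library size as the only scaling (0.108), in both limma fits (0.129 and 0.125) and against a fold of 1.2 (0.349). Without knockdown replicate 3 the log2 fold change was -0.22 (adjusted p = 0.00542). GATA2-AS1, which shares no exon base with GATA2, rose by 0.48 in the FOXA1 knockdown and had a log2 fold change of 0.07 in the TRIM28 knockdown that was not called. Without knockdown replicate 3 it was called there at 0.29 (adjusted p = 0.00158).

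HOXB13 (chr17:48724763-48728750, minus strand, ENSG00000159184), the posterior homeodomain factor of the prostate, showed the smallest rise after FOXA1 knockdown. Its FOXA1 controls were at 269, 298 and 261 CPM and the knockdown libraries at 310, 303 and 326 CPM. The groups were close but did not overlap, and the log2 fold change was 0.18 ± 0.05 (adjusted p = 0.00592). Against a minimum fold of 1.2 it was not called (adjusted p = 1.00). In the TRIM28 arm the controls were at 270, 276 and 261 CPM and the knockdown libraries at 206, 206 and 199 CPM. The knockdown libraries were at 73.9% to 76.5% of control, and replicate 3 did not stand apart for this gene. The log2 fold change was -0.40 ± 0.08 (adjusted p = 0.00465) and, without replicate 3, -0.38 (adjusted p = 6.05e-06). Against a minimum fold of 1.2 this call too was lost (adjusted p = 0.0946).

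**Figure D2:**
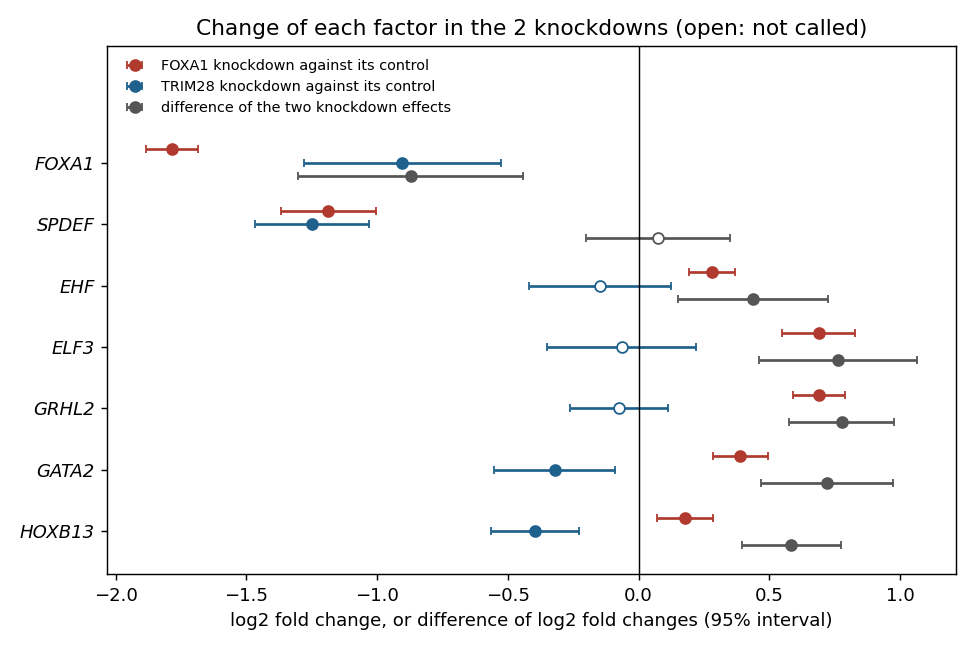
Log2 fold change of each factor in the FOXA1 knockdown and the TRIM28 knockdown, and the difference of these effects, with 95% intervals and open symbols where the adjusted p was 0.05 or more. SPDEF lies at -1.19 and -1.25, and the difference is above 0 and called for GRHL2, ELF3, GATA2, HOXB13 and EHF.

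The direct test of the difference between the knockdowns, a contrast over all 12 libraries with edgeR's quasi-likelihood test, called 6 of the 7 factors, against 10.6% of all genes. The 5 differences above 0 compare with 5.98% of all genes called in that direction, and the single one below 0 with 4.59%. GRHL2 differed by 0.78 ± 0.10 (adjusted p = 4.68e-05), ELF3 by 0.76 ± 0.14 (0.00216), GATA2 by 0.72 ± 0.12 (0.000771) and HOXB13 by 0.58 ± 0.09 (0.000421), each with the effect of FOXA1 knockdown the higher. These 4 remained called in all 20 alternatives. FOXA1 differed by -0.87 ± 0.20 (adjusted p = 0.0144), being the target in 1 arm. EHF, at 0.44 ± 0.14, was at the threshold (adjusted p = 0.0493). It was called in 3 of 20 alternatives, among them the fit without TRIM28 knockdown replicate 3, where it differed by 0.61 (adjusted p = 3.86e-08), and leaving out any other single library raised the adjusted p to between 0.0618 and 0.11.

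Summed over the 7 genes the factors were at 2369 to 2622 CPM in the FOXA1 controls and 2498 to 2514 CPM in the FOXA1 knockdown, and these ranges overlapped. The TRIM28 controls summed to 2483 to 2590 CPM and the knockdown libraries to 1769, 1792 and 2089 CPM. In that arm the highest of the 3 sums belonged to replicate 3.

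**Figure D3:**
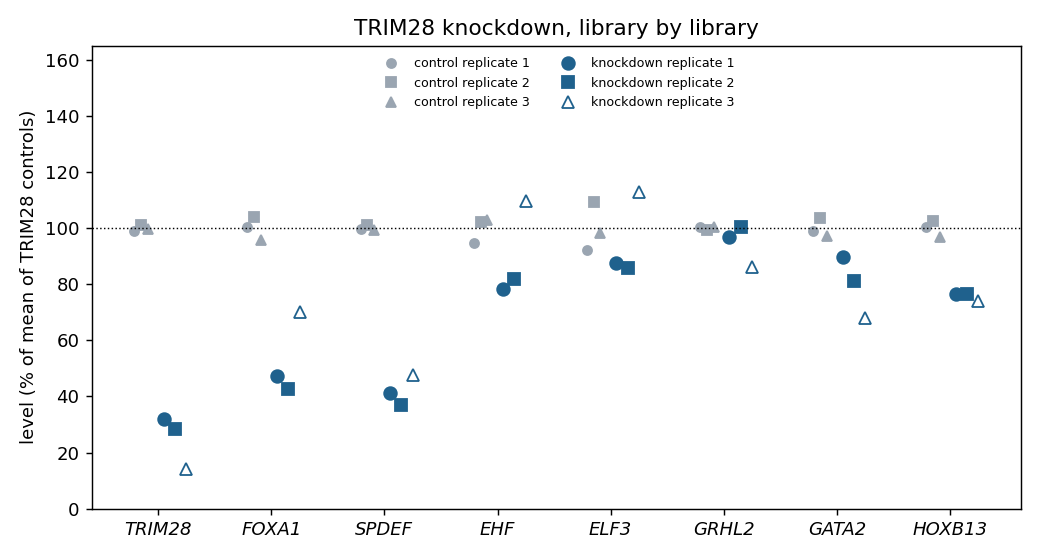
Level of TRIM28 and of the 7 factors in each library of the TRIM28 arm, as percent of the mean of the 3 controls (linear axis from 0, open triangle for knockdown replicate 3). Replicate 3 has the least TRIM28 (14.0%) yet is above 100% for EHF and ELF3 and nearest to control for FOXA1 (70.1%), while HOXB13 lies between 73.9% and 76.5% in all 3 knockdown libraries.

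The families from which the factors come were examined next, with lists chosen when earlier results of these data were known. Their medians stand beside medians over all genes tested of -0.02 in the FOXA1 knockdown and 0.00 in the TRIM28 knockdown. In the FOXA1 knockdown 52.4% of 14953 genes tested were called, 26.1% upward and 26.3% downward. There 4305 genes were called against a fold of 1.2, and 6257 of 15921 with all 12 libraries in 1 fit. In the TRIM28 knockdown 26.6% were called, 13.3% upward and 13.3% downward. The counts of the lists under the alternatives stand beside calls over all genes that moved too. In the TRIM28 knockdown 3990 of 14981 genes were called, and 6967 of 15475 without its replicate 3. With all 12 libraries in 1 fit 5716 of 15921 were called there, and without any 1 control between 1817 and 2154 genes. Of 40 forkhead genes outside FOXA1, 17 were tested, and the closest relatives FOXA2 and FOXA3 had at most 3 counts in any library. In the FOXA1 knockdown 9 forkhead genes rose and 4 fell (median 0.24), and 8 in all were called against a fold of 1.2. FOXO3, a stress-responsive forkhead factor, rose by 0.72 and FOXO6 by 1.72, while the forkhead repressor FOXP1 fell by 1.17 and FOXM1, which drives mitotic genes, by 0.54. After TRIM28 knockdown 2 rose and 1 fell (median 0.17), and 10 were called without its replicate 3, 6 with library size as the only scaling and 5 with all 12 libraries in 1 fit. FOXM1 fell by 0.85 there and FOXC1, at 0.907 ± 0.358 CPM in controls, rose by 1.94. FOXO1, higher by 0.54, lost its call without any 1 control or without knockdown replicate 1 or 2, and the count was then 2.

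Of 24 ETS genes outside SPDEF, ELF3 and EHF, 17 were tested in the FOXA1 arm. There 9 rose and 4 fell, with a median of 0.51. ELF1 rose by 1.19, from 26.2 ± 2.08 to 60.2 ± 0.0984 CPM, and ETS1 by 0.59, whereas ELK4, a ternary complex factor, fell by 0.75 and ELF2 by 0.58. Among 18 tested in the TRIM28 arm, 4 rose and 5 fell (median 0.11), with ELF1 again up by 0.63, ETV3 up by 0.61, ELK3 up by 0.89 and ELK4 down by 0.55. The count was 13 without knockdown replicate 3, 8 without knockdown replicate 1, and 5 or 6 without any other library.

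Neither GATA6 nor ZFPM1, a GATA cofactor, the 2 tested genes of the GATA list, was called in either knockdown, with values of 0.04 and 0.10 in the FOXA1 arm and 0.63 and 0.01 in the TRIM28 arm. Of the grainyhead and CP2 genes outside GRHL2, UBP1 (0.09), TFCP2L1 (0.11) and GRHL1 (0.00) were tested in the FOXA1 knockdown and none was called. UBP1 rose in the TRIM28 knockdown by 0.28, a call lost without any 1 control or without knockdown replicate 1 or 2. GRHL3, the skin barrier member of the family, was called at 4.13 there. It entered the test through the knockdown alone, with 0, 2 and 1 counts in the controls and 13, 12 and 32 counts in the knockdown libraries.

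Among 10 tested HOX13 paralogs and TALE homeodomain partners of HOXB13, 4 rose and 4 fell in the FOXA1 knockdown (median 0.01), 5 of them called against a fold of 1.2. TGIF1, a TALE repressor, fell by 2.08, from 225 ± 11.3 to 53.3 ± 3.24 CPM, and PKNOX2 by 2.50, while TGIF2 rose by 0.46 and MEIS1, a classic HOX partner, fell by 1.10. HOXA13 rose by 0.92 in the TRIM28 knockdown. TGIF1 was lower by 1.38 and TGIF2 and HOXC13 were higher by 0.63 and 0.67, but each of these 3 calls was lost without 1 or more libraries (TGIF1 without control replicate 2 or 3, the others without any 1 control or without knockdown replicate 2, HOXC13 also without knockdown replicate 1).

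Of 24 cofactors of FOXA1, 23 were tested. In the FOXA1 knockdown 10 rose and 7 fell (median 0.06), with 6 called against a fold of 1.2 and 11 with all 12 libraries in 1 fit. NFIB, a nuclear factor I that binds with FOXA1, rose by 1.32, the corepressor TLE1 by 1.48, CTBP2 by 0.52 and NCOR1 by 0.41. With TRIM28 knocked down 6 rose and 2 fell (median 0.02). CEBPB fell there by 0.65 and the corepressor CTBP1 by 0.44, and the histone methyltransferase genes KMT2D and KMT2C rose by 0.58 and 0.44, KMT2C losing its call without control replicate 1 or 2. The count was 3 without TRIM28 control replicate 1 or 2, 5 without control replicate 3 and 13 without knockdown replicate 3.

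Of 24 epithelial adhesion genes, among them classic grainyhead targets, all were tested in the FOXA1 knockdown, where 14 rose and 2 fell, with a median of 0.28. Among these rises KRT7 (1.82) entered the test through the knockdown alone, being too low for a test between the control groups. CDH1, which encodes E-cadherin, rose by 0.72, from 369 ± 7.58 to 608 ± 23.3 CPM, CLDN4 by 1.35, the protease inhibitor SPINT1 by 0.75 and KRT19 by 1.06. With a minimum fold of 1.2 the count was 9, all of them higher, and with all 12 libraries in 1 fit it was 10, where KRT19 lost its call (adjusted p = 0.191). KRT19 was at 155 CPM in replicate 3 of the TRIM28 knockdown and at 29.3 and 33.9 CPM in the others. SNAI2, a repressor of epithelial genes, also rose, by 2.06 from 4.50 ± 1.01 to 19.0 ± 1.24 CPM, and SNAI1 at 0.45 was not called.

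In the TRIM28 knockdown 3 adhesion genes rose and 4 fell of 23 tested (median 0.10). CDH1 rose by 0.51 and the junction protein gene CGN by 0.49, CLDN3 fell by 0.93, and PKP3 at -0.40 lost its call without control replicate 1 or 3 or knockdown replicate 2. The count was 3 without control replicate 1 or 3, 4 without knockdown replicate 2, and 13 without knockdown replicate 3. GRHL2, described above, was called higher in the FOXA1 knockdown but not in this one. A link of the adhesion genes to the GRHL2 level was not tested.

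Secretory genes of luminal cells moved both ways after FOXA1 knockdown, 6 up and 7 down of 17 tested (median -0.24). FOLH1, which encodes prostate-specific membrane antigen, fell by 1.09 and XBP1, a secretory stress factor, by 0.72. KLK3, which encodes prostate-specific antigen, rose by 0.71, from 79.8 ± 5.05 to 131 ± 2.73 CPM, and AGR2 by 1.39. After TRIM28 knockdown 7 of 18 fell and 2 rose (median -0.35). KLK2 fell by 1.21, KLK3 by 1.00, TMPRSS2 by 0.87 and CREB3L4 by 0.79. The difference between the knockdowns was called for KLK3 (1.73, adjusted p = 7.86e-06), TMPRSS2 (1.16, 8.55e-08), KLK2 (0.88, 7.41e-05) and, in the other direction, FOLH1 (-0.73, 0.00107). The TRIM28 count was 11 without knockdown replicate 3 and fell to between 4 and 5 without control replicate 1 or 2 or knockdown replicate 2.

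**Figure D4:**
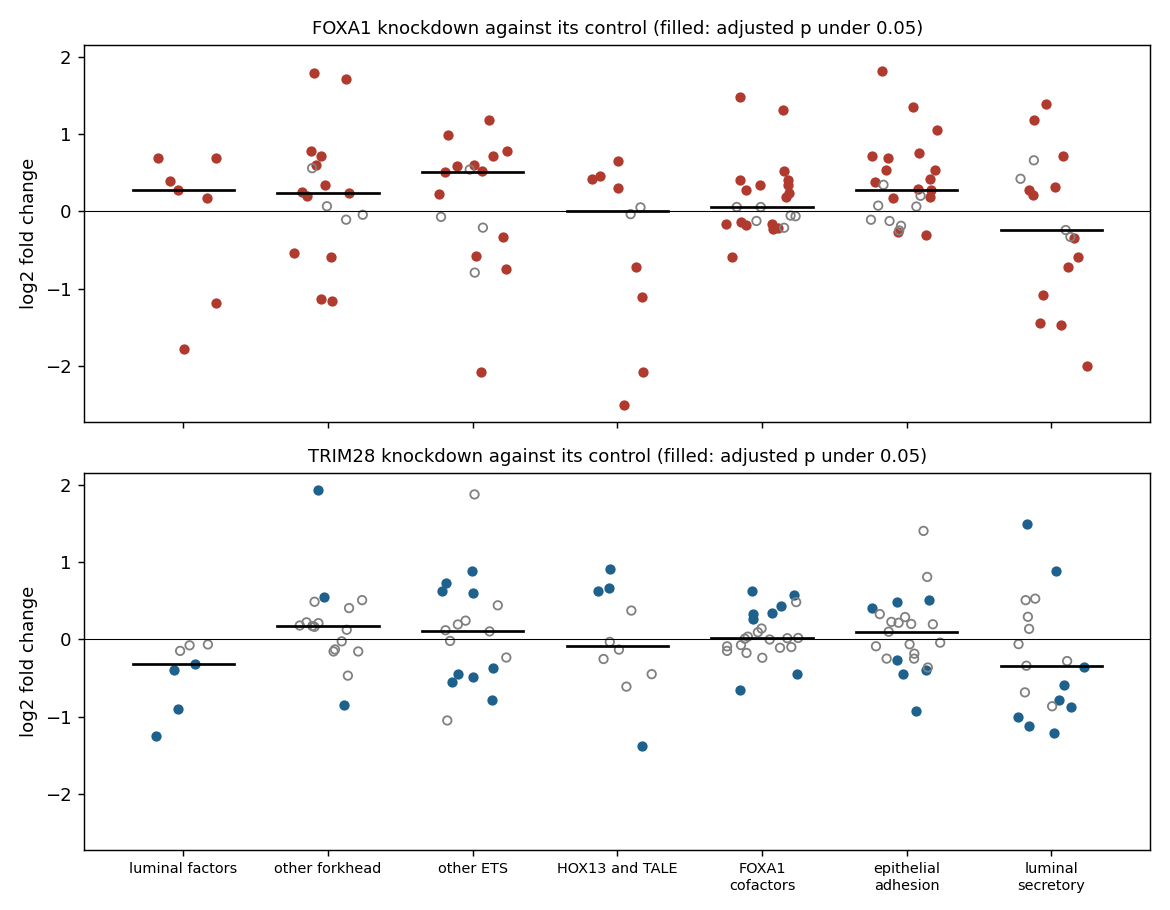
Log2 fold changes of the tested genes in 7 lists in the FOXA1 knockdown (above) and the TRIM28 knockdown (below), filled where called, with a black bar at each list's median. Epithelial adhesion genes lie mostly above 0 in the FOXA1 knockdown (14 rose, 2 fell, against 26.1% and 26.3% of all genes). KRT7 is among these rises and entered the test through the knockdown alone. Luminal secretory genes lie mostly below 0 in the TRIM28 knockdown (7 fell, 2 rose, against 13.3% of all genes in each direction).

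Factors of other epithelial and endodermal lineages were mostly too low to test, 5 of 17 in the FOXA1 arm. SOX9, a progenitor factor, rose by 4.27 there, from 5.11 ± 1.23 to 100.3 ± 2.14 CPM, and by 1.38 in the TRIM28 knockdown, where it reached 13.0 ± 3.08 CPM. PDX1 (0.83) and ONECUT2 (-0.17) passed narrowly in the FOXA1 knockdown, and both lost the call with all 12 libraries in 1 fit (adjusted p = 0.114 and 0.167) and without several single libraries: PDX1 without control replicate 2 or 3 or knockdown replicate 1 or 2, ONECUT2 without control replicate 1 or 2 or knockdown replicate 3. RFX6, an islet factor, fell by 2.04 in the TRIM28 knockdown. HNF4A, too low to be tested between the control groups or in the FOXA1 arm, was called at 1.95 in the TRIM28 knockdown. That call was lost without any 1 control or without knockdown replicate 2.

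Genes next to the members on the chromosome moved both ways. Of 11 neighbouring and antisense genes, 10 were tested in the FOXA1 knockdown, where 5 rose and 5 fell, 6 of them called against a fold of 1.2. Beside FOXA1, MIPOL1 fell by 0.45. Beside HOXB13, which rose, PRAC1 fell by 1.07, from 9.12 ± 0.850 to 4.36 ± 0.387 CPM. Beside EHF, which rose, the ETS gene ELF5 rose by 0.51 and APIP fell by 0.45. Beside SPDEF, which fell, ILRUN and PACSIN1 rose by 0.22 and 0.27. TRIM28 knockdown gave 4 falls and 0 rises: PRAC1 by 1.48, APIP by 0.81, MIPOL1 by 0.33 and PACSIN1 by 0.38, and the last 2 lost their calls without any 1 control, MIPOL1 also without knockdown replicate 1. Without knockdown replicate 3 the count was 7, with 5 falls and 2 rises, ELF3-AS1 at 0.64 and GATA2-AS1 at 0.29, and it was 2 without any 1 control. Beyond the 4 smallest p in each knockdown, neighbouring genes were named after their values had been seen.

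The genes whose pattern over the 12 libraries was most like that of each factor were found as the smallest root mean square (RMS) difference of centred log2 CPM among the 10798 genes that averaged 5 CPM or more. These are descriptions over libraries that share their groups. Closest to FOXA1 were DOCK8 (0.104), MYRIP (0.112) and BEND4 (0.129), against a median of 0.765 over all genes. For SPDEF they were HES6 (0.109), KLF15 (0.127) and SLC43A1 (0.128), with a median of 0.627. Among those closest to HOXB13 were HDGF (0.055) and FAAP24 (0.070), with a median of 0.306. GATA2 had IFITM3 (0.077), NQO1 (0.077) and PACSIN1 (0.078), the last a neighbour of SPDEF. GRHL2 had ELOVL1 (0.052), ACTN1 (0.063) and CBX2 (0.078). ELF3 had ARL6IP1 (0.060), RBM47 (0.073) and HACD2 (0.077), and EHF had DCAF12 (0.047), ZBED4 (0.052) and FANCC (0.053). None of the 7 factors was among the 3 closest genes of another.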

How the data were processed

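Poly(A) RNA from LNCaP cells was sequenced in 12 libraries, per the labels' protocols. Raw counts per symbol, with 1 table for each arm, and FPKM values for all 12 libraries are as the authors deposited them. Per the submitters' processing notes, the build was GRCh38 (hg38). The sources used here name no aligner, counting tool, strand setting or annotation release. Each table had 62710 lines for 60835 symbols, and 453 symbols repeated on 2328 lines with the same value were kept once. The deposited FPKM equalled count over length and library total for 33045 of 33045 genes checked, within a relative tolerance of 0.001. With 1 batch label throughout, batches could not be examined. Libraries held 12256092 to 15152890 counts, between 24650 and 27031 genes had a count, and a gene low in controls could pass the filter through the knockdown alone.

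Changes were tested with edgeR 4.0.16 in R 4.3.3: TMM scaling, its expression filter (at least 10 counts in enough libraries and 15 in total), robust quasi-likelihood fits on the 6 libraries of a knockdown and its control, two-sided, Benjamini-Hochberg adjustment over all genes tested. The difference of the effects was a contrast over 12 libraries, and the controls were compared like a knockdown. The SE is the size of the log2 fold change over the square root of F, and 95% intervals use the t quantile with the total degrees of freedom of the fit. CPM levels used 1 TMM scaling over 12 libraries. Replicates were compared by chi-square over genes, and no pair agreed within sampling noise. Fits were tested on simulated counts. Named were all members, up to 4 genes per list and knockdown by smallest p (more for neighbouring genes, and KRT7 for its passage of the filter), and the 3 nearest genes per member. Antisense and neighbouring genes were taken from GENCODE 29. Its coordinates differ from the deposited ones for FOXA1, HOXB13, EHF and other members, so shared exon bases may differ in the annotation that was counted. Alternatives were other scalings, no filter, DESeq2 1.42.0, limma 3.58.1 on log2 of FPKM plus a pseudocount of 1 or 0.1, a replicate block, edgeR's glmTreat at a fold of 1.2, 1 fit of all 12 libraries, and leaving out each library, which also eased the filter. Members and lists were chosen with earlier results of these data known, some genes are not reported here, and counts of lists under the alternatives were added after the data were seen.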

Additional observations from a re-analysis of the deposited data

How the results depend on the processing

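In the FOXA1 knockdown 7 of 7 factors were called in every alternative but the test against a fold of 1.2, which called 5, and leaving out each library gave 7 throughout. In the TRIM28 knockdown 4 were called, 3 with library size only or limma, 2 against a fold of 1.2, and 3 to 5 when a library was left out. For the difference 6 were called, 4 to 6 in the alternatives and 5 to 6 without a library. Between the controls 0 were called throughout. No call of a factor changed direction. The replicate numbers did not pair the libraries: correlations of same-numbered deviations were -0.02, 0.02 and 0.11 in the FOXA1 arm, 0.02, -0.08 and 0.01 in the TRIM28 arm and -0.07, -0.09 and -0.08 between controls, and not every library correlated best with its own number. With a replicate block the calls were 7, 4, 5 and 0 in these comparisons, the 5 without EHF (adjusted p = 0.0503).

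Over all genes the TRIM28 knockdown had 3990 calls, 2019, 1817 and 2154 without its control replicate 1, 2 or 3, 2488 without its knockdown replicate 2, 6967 without its knockdown replicate 3, and 1625 against a fold of 1.2. The FOXA1 knockdown had 7841 and 4305 against that fold. The difference had 1683, 3528 without TRIM28 knockdown replicate 3 and 708 against that fold. The controls had 0, 8 without a filter, and 1 without FOXA1 control replicate 1 or TRIM28 control replicate 2. With library size only, 63.1% of TRIM28 calls were upward in place of 49.9%, and 40.2% of calls of the difference in place of 56.6% (limma 46.1% and 44.6%). The cause was not tested. Of the lists in the TRIM28 knockdown, a fold of 1.2 left 2 forkhead, 5 ETS, 2 HOX and TALE, 2 cofactor, 2 adhesion and 2 neighbouring genes called, and 1 fit of all 12 libraries called 12 adhesion and 7 neighbouring genes. At this depth ELF3, the lowest factor, rested on the fewest counts.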
